A study of Rattus norvegicus with 14 samples.

Results

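Collagens that build sheets, networks and linkers rather than thick fibrils were examined in the thoracic aorta of rats with renal failure. The 8 genes were Col4a1, Col4a2, Col8a1, Col12a1, Col13a1, Col14a1, Col15a1 and Col18a1, out of 14217 named genes on the array. They were taken by symbol, and 14 probe sets that carry 1 of these symbols and no other were found; a probe set is the group of short probes that measures 1 transcript. Where a gene had several, the one with the highest mean signal stood for it. The genes were picked with the A-CRF minus Control differences of these same arrays known, so those differences are given here as a description, with no p-value, and a count of them past a threshold is no evidence about them.

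The tissue was thoracic aorta from Sprague-Dawley rats. There were 8 arrays labelled A-CRF, from rats with chronic renal failure induced by adenine, and 6 labelled Control, each measuring total RNA on a 1-colour Affymetrix rat array whose labelling starts at the 3′ end of transcripts. No age, sex, genetic change or further treatment is spelled out in the labels. Every sample title, in both groups, also carries the code NNa, which the titles do not explain. The labels do not say that each array came from a separate animal, so the p-values below measure the spread between these samples. All values are log2 intensities, a difference is the A-CRF mean minus the Control mean, and a difference of 1 is a 2-fold change. The number of arrays limits the precision. In whole tissue, fewer cells of a type and less RNA per cell cannot be told apart.

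Basement membranes are thin sheets of matrix under endothelium and around each smooth muscle cell. Their scaffold is a network of type IV collagen, whose commonest form joins chains from Col4a1 and Col4a2, and laminins, nidogens and the heparan sulfate proteoglycan perlecan are laid onto it. Types XV and XVIII (Col15a1, Col18a1) are multiplexins, collagens with interrupted triple helices that carry glycosaminoglycan chains, sit in or next to basement membranes and release the fragments restin and endostatin. Type VIII (Col8a1) is a short-chain collagen that forms networks in the vessel wall and is known for its expression by smooth muscle cells after arterial injury. Types XII and XIV (Col12a1, Col14a1) attach to the surface of fibrils, and type XIII (Col13a1) spans the cell membrane, where it is found at cell-matrix contacts and at the neuromuscular junction.

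Promoter windows of 300 bases, 250 before and 50 from the annotated start of transcription, were found for 6 of the 8 genes in the RefSeq sequences of rat build GRCr8. The start sites of Col4a1 and Col4a2 lie head to head on chromosome 16, 77 bases apart, with Col4a1 on the plus strand (start at 84885597) and Col4a2 on the minus strand (start at 84885520). Their windows overlap by 176 bases. Of all 33469 windows in the table, 7.63% have a start on the opposite strand, pointing away, within 300 bases. The window of Col4a1 is shown because it holds both starts, at positions 251 (Col4a1) and 174 (Col4a2). Those of Col15a1 and Col18a1 are shown because these genes varied together with the type IV pair across A-CRF arrays, and that of Col13a1 because none of its pairs passed in those arrays. Capitals mark matches, on either strand, to 3 motifs: the GC box (GGGCGG), the CCAAT box spelled by its name and the TATA box (TATAAA).
Col4a1, chr16:84885347-84885646, plus strand: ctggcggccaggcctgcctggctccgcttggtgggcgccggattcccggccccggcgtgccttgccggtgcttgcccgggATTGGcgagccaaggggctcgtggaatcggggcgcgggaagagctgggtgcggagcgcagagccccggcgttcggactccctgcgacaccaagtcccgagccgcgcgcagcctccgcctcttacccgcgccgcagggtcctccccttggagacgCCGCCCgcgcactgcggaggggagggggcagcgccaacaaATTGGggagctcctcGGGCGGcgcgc
Col15a1, chr5:66297296-66297595, plus strand: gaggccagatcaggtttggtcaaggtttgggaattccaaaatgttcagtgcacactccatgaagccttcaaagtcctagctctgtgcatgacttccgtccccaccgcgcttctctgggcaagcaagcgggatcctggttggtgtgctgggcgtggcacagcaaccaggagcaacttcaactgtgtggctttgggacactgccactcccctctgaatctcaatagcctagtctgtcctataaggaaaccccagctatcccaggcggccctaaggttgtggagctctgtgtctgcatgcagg
Col18a1, chr20:11473395-11473694, plus strand: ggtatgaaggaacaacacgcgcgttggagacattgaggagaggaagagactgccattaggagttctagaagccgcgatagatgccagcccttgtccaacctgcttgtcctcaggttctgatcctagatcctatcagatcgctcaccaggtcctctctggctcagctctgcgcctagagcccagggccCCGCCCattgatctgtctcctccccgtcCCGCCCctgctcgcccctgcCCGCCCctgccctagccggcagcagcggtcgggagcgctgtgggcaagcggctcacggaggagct
Col13a1, chr20:30466751-30467050, minus strand: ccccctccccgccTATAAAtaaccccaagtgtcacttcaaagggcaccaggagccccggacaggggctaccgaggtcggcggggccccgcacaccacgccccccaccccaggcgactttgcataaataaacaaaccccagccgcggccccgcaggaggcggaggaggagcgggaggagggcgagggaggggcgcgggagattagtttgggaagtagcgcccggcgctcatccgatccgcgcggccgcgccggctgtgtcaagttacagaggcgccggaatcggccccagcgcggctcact

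GGGCGG was found 2 times each in the windows of Col4a1 and Col4a2, and these are the same 2 sites, inside the overlap. It was found 4 times in the window of Col8a1 and 3 times in that of Col18a1, and 33.1% of all windows hold it. CCAAT was found 2 times in the Col4a1 window and 1 time in the Col4a2 window. Of all windows, 37.5% hold it at least once. The Col4a2 match is 1 of the 2 Col4a1 matches, counted in both windows. This CCAAT site and 1 of the shared GGGCGG sites lie downstream of the Col4a1 start. TATAAA was found 1 time, in the Col13a1 window, and 14.2% of all windows hold it. None of the 3 motifs was in the Col15a1 window. The type IV windows were rich in G and C, with 75.0% for Col4a1 and 73.7% for Col4a2, against a median of 51.7% over all windows. The others had 68.7% (Col13a1), 62.7% (Col8a1 and Col18a1) and 55.0% (Col15a1). These matches describe letters and say nothing of which factor binds.

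Several arrays stood apart before any group was compared. The 3′ minus 5′ difference of the GAPDH control probe sets, a measure of RNA quality, was 1.90 in A-CRF 1, 1.63 in A-CRF 4 and 1.58 in Control 1, and 0.37 to 0.55 in the other 11 arrays. A score of circadian clock genes was -1.04 to -0.40 in A-CRF 1 to 5 and 0.64 to 0.77 in A-CRF 6, 7 and 8, against -0.37 in Control 1 and 0.15 to 0.84 in the other Control arrays. Smooth muscle markers averaged 9.77 to 10.20 in A-CRF arrays and 9.99 to 10.65 in Control arrays, so the defining cell type of the aortic wall was present in every array. The mean of 7 brown adipocyte markers was 5.72 to 6.93 in A-CRF arrays and 6.12 to 7.03 in Control arrays. Only 3 of the 7 had a Control mean more than 1 above the lowest value in the table, which narrows the spread of that mean. Of these, Ucp1 ran from 5.31 to 9.75 in A-CRF arrays and from 6.88 to 9.07 in Control arrays. Over all 31042 probe sets tested, 391 were higher (1.26%) and 245 lower (0.789%) in A-CRF than in Control at an adjusted p under 0.05 (limma, Benjamini-Hochberg adjustment), with a median difference of -0.002.

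Col4a1, the first chain of the type IV network, was 7.95 to 8.72 in A-CRF arrays (median 8.23) and 7.78 to 8.22 in Control arrays (median 7.87). The groups overlapped, and 4 of 8 A-CRF arrays lay above every Control array. Its means were 8.26 ± 0.26 over the A-CRF arrays (SD, n = 8) and 7.91 ± 0.16 over the Control arrays (SD, n = 6), a difference of 0.36 ± 0.11 (SE), or 1.28-fold. The overlap came from Control 1, at 8.22, while the other Control arrays stood at 7.78 to 7.93. A second probe set of Col4a1 averaged 8.33 ± 0.32 over the 8 A-CRF arrays and 7.71 ± 0.26 over the 6 Control arrays (± SD), a difference of 0.62 ± 0.15 (SE), with 5 of 8 A-CRF arrays above every Control array.

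Col4a2, which supplies the other chain of the heterotrimer, was 6.88 to 7.78 in A-CRF arrays (median 7.08) and 6.52 to 7.21 in Control arrays (median 6.68). A-CRF 4 and A-CRF 1, at 7.78 and 7.70, were the only A-CRF arrays above Control 1, at 7.21, and all 8 A-CRF arrays lay above the other 5 Control arrays, at 6.52 to 6.73. Means were 7.20 ± 0.34 over the 8 A-CRF arrays and 6.73 ± 0.25 over the 6 Control arrays (± SD), a difference of 0.47 ± 0.15 (SE), or 1.38-fold. A-CRF 1, A-CRF 4 and Control 1 are the arrays with the large GAPDH difference. Without them, Col4a2 was 7.02 ± 0.09 in A-CRF and 6.63 ± 0.09 in Control (SD, n = 6 and 5) and Col4a1 was 8.17 ± 0.21 in A-CRF and 7.84 ± 0.07 in Control. For both genes every A-CRF array then lay above every Control array, as did 2.37% of all probe sets in that subset. Nothing is read from this.

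Of the multiplexins, Col18a1, the source of endostatin, showed the largest difference among the 8 genes. It was 9.83 to 11.15 in A-CRF arrays (median 10.29) and 9.11 to 9.77 in Control arrays (median 9.45), and the groups did not overlap. Means were 10.32 ± 0.42 over the 8 A-CRF arrays and 9.42 ± 0.23 over the 6 Control arrays (± SD), a difference of 0.91 ± 0.18 (SE), or 1.87-fold. Its second probe set was 9.41 to 10.41 in A-CRF arrays and 8.81 to 9.05 in Control arrays, again without overlap, with a difference of 0.84 ± 0.13 (SE). Among A-CRF arrays the value was highest in A-CRF 4, at 11.15, and lowest in A-CRF 6, 7 and 8, at 9.83, 9.88 and 10.10. Those 3 arrays have clock scores of 0.64 to 0.77, against -1.04 to -0.40 in A-CRF 1 to 5. The highest Control value was 9.77, in Control 1. The part of clock phase in the difference of Col18a1 was not tested.

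Col15a1, the other multiplexin, was 8.87 to 10.26 in A-CRF arrays (median 9.31) and 8.32 to 9.49 in Control arrays (median 8.83). The groups overlapped, with A-CRF 1, 2 and 4 (9.69, 9.78 and 10.26) above every Control array. Means were 9.43 ± 0.45 over the 8 A-CRF arrays and 8.82 ± 0.41 over the 6 Control arrays (± SD), a difference of 0.61 ± 0.22 (SE), or 1.53-fold. The second probe set gave a difference of 0.74 ± 0.20 (SE), or 1.67-fold, with 6 of 8 A-CRF arrays above every Control array. Both probe sets of each multiplexin therefore lay on the same side.

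**Figure D1:**
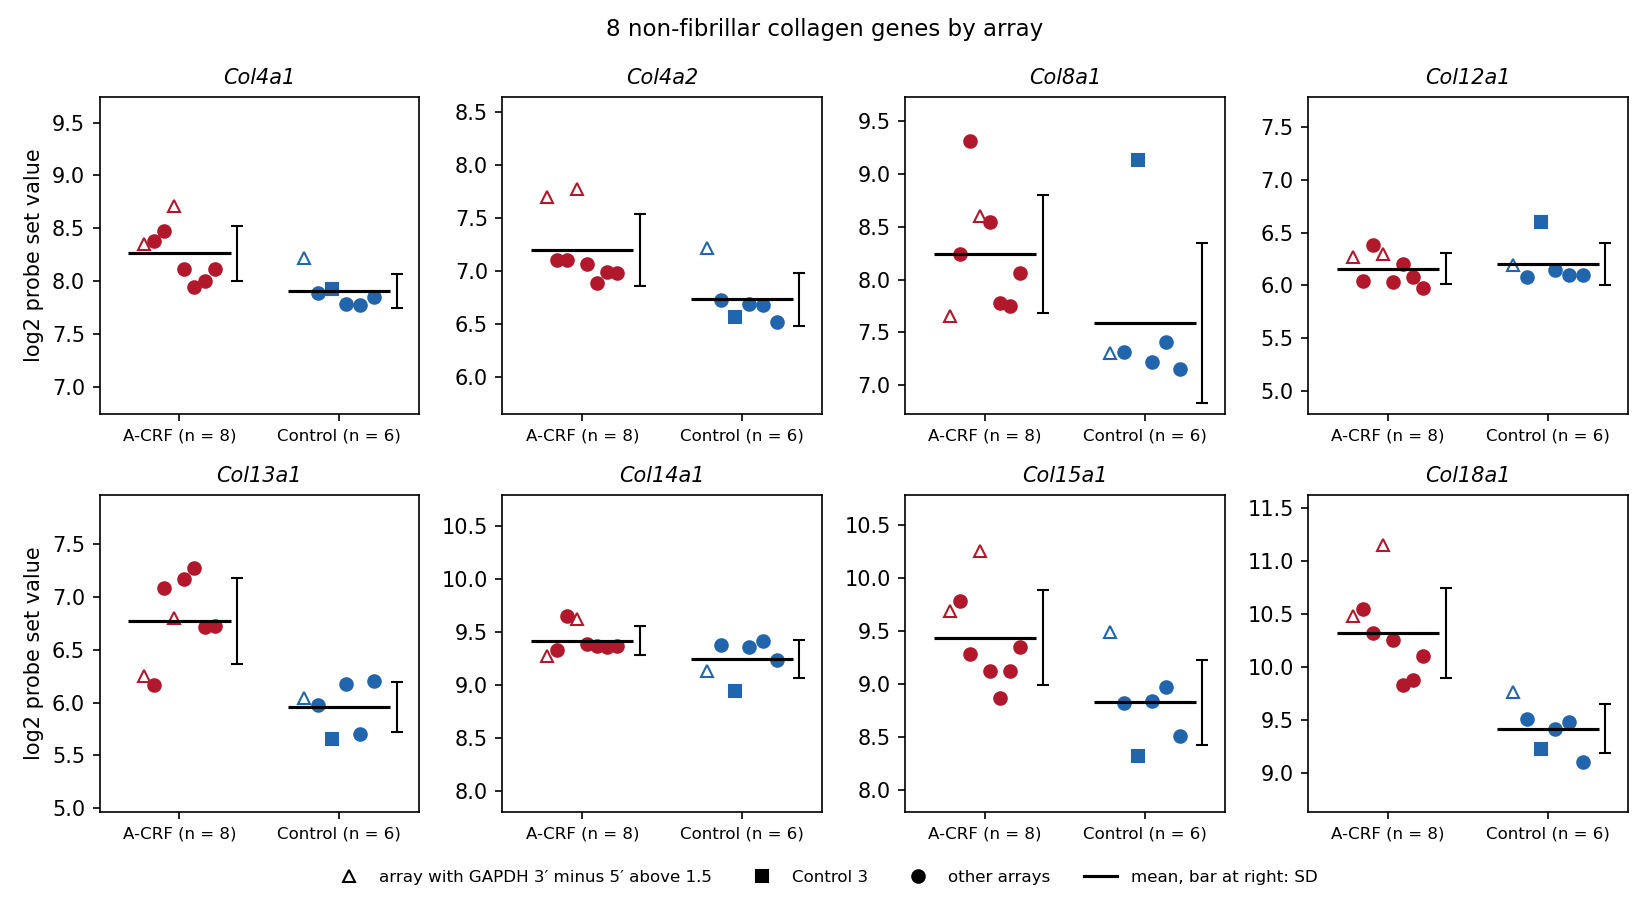
Log2 intensity (vertical axis) of each of the 8 collagens in A-CRF arrays (left, red) and Control arrays (right, blue), 1 point per array, with the mean and SD of each group. Col18a1 is the 1 gene whose groups do not overlap, and the Col8a1 point at 9.13 in the Control group is Control 3.

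Col8a1, the short-chain network collagen, was 7.65 to 9.31 in A-CRF arrays (median 8.15) and 7.16 to 9.13 in Control arrays (median 7.31). Control 3 stood at 9.13, while the other 5 Control arrays were at 7.16 to 7.41, so the groups overlapped through 1 array. Means were 8.24 ± 0.56 over the 8 A-CRF arrays and 7.59 ± 0.76 over the 6 Control arrays (± SD), a difference of 0.65 ± 0.33 (SE), or 1.57-fold. Without Control 3 the Control mean was 7.28 ± 0.10 (SD, n = 5), the difference was 0.96, and all 8 A-CRF arrays lay above the Control arrays, as did 1.29% of all probe sets. The widest spread within A-CRF was also that of Col8a1, from 7.65 in A-CRF 1 to 9.31 in A-CRF 3.

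The fibril-associated pair showed the smallest differences. Col12a1 was 5.98 to 6.38 in A-CRF arrays (median 6.14) and 6.08 to 6.60 in Control arrays (median 6.12), with means of 6.16 ± 0.15 over the A-CRF arrays and 6.20 ± 0.20 over the Control arrays (SD, n = 8 and 6) and a difference of -0.04 ± 0.09 (SE). The groups overlapped, with 4 A-CRF arrays (2, 5, 7 and 8, at 5.98 to 6.08) below every Control array and 0 above, and Control 3, at 6.60, was again the highest Control array. Its other 2 probe sets, both dim, averaged 5.19 and 5.74 in A-CRF and 5.18 and 5.73 in Control. Over 25 other settings of the processing or subsets of arrays, the Col12a1 difference ran from -0.08 to 0.04 and was positive in 2, so no direction is given for it.

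Col14a1 was 9.27 to 9.66 in A-CRF arrays (median 9.37) and 8.94 to 9.41 in Control arrays (median 9.30). A-CRF 3 and A-CRF 4, at 9.66 and 9.62, were above every Control array, and the other 6 A-CRF arrays lay among the Control arrays. Means were 9.42 ± 0.14 over the 8 A-CRF arrays and 9.24 ± 0.18 over the 6 Control arrays (± SD), a difference of 0.18 ± 0.08 (SE), or 1.13-fold, and a second probe set gave 0.15 ± 0.08 (SE).

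Col13a1, the transmembrane collagen, was 6.17 to 7.27 in A-CRF arrays (median 6.76) and 5.66 to 6.21 in Control arrays (median 6.01). A-CRF 2, at 6.17, was the 1 A-CRF array within the Control range, and A-CRF 1, at 6.25, lay just above it. Means were 6.77 ± 0.41 over the 8 A-CRF arrays and 5.96 ± 0.23 over the 6 Control arrays (± SD), a difference of 0.81 ± 0.17 (SE), or 1.76-fold. A-CRF 6 had the highest value, 7.27, although the same array had the lowest A-CRF values of Col4a1, Col4a2, Col15a1 and Col18a1. Without the 3 arrays of large GAPDH difference the Col13a1 difference was 0.91.

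Across the 8 genes, 7 differences were positive, the median was 0.54, and they ran from -0.04 to 0.91, while the median over all named genes was -0.0012. In the fit over all probe sets, the representative probe sets of 2 of the 8 genes (Col13a1 and Col18a1) were called higher and 0 were called lower. Among all 14217 named genes 275 were called higher. Of the 14 probe sets of these genes 4 were called, namely both of Col18a1, that of Col13a1 and the second of Col4a1. Of all probe sets 1.26% were called higher and 2.05% in either direction. Col18a1 alone, 1 of 8, had every A-CRF array above every Control array, as had 0.944% of all probe sets. Because the genes were picked on this contrast, these counts are not a test of them and nothing is read from them. Over the 14 fits that each left out 1 array, the difference of Col13a1 was 0.74 to 0.90 and that of Col18a1 was 0.79 to 0.98.

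Samples that stood apart moved several members. A-CRF 4 was the highest A-CRF array and Control 1 the highest Control array for the same 4 genes, Col4a1, Col4a2, Col15a1 and Col18a1. Control 3 was the highest Control array for Col8a1 and Col12a1 and the lowest for Col13a1, Col14a1 and Col15a1. Without the 3 arrays of large GAPDH difference, the median difference was 0.47, and 3 genes did not overlap, namely Col4a1, Col4a2 and Col18a1, as did 2.37% of all probe sets with A-CRF above Control in that subset. Without Control 3 as well, the median was 0.42 and 4 genes did not overlap, Col8a1 being the fourth, against 3.08% of all probe sets. These smaller subsets separate more features than the full set does, and nothing is read from the counts. With the clock score as a covariate in the fit, the median was 0.31, the difference of Col18a1 was 0.66, and that of Col4a1 was 0.18. The part of clock phase in the differences was not tested.

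**Figure D2:**
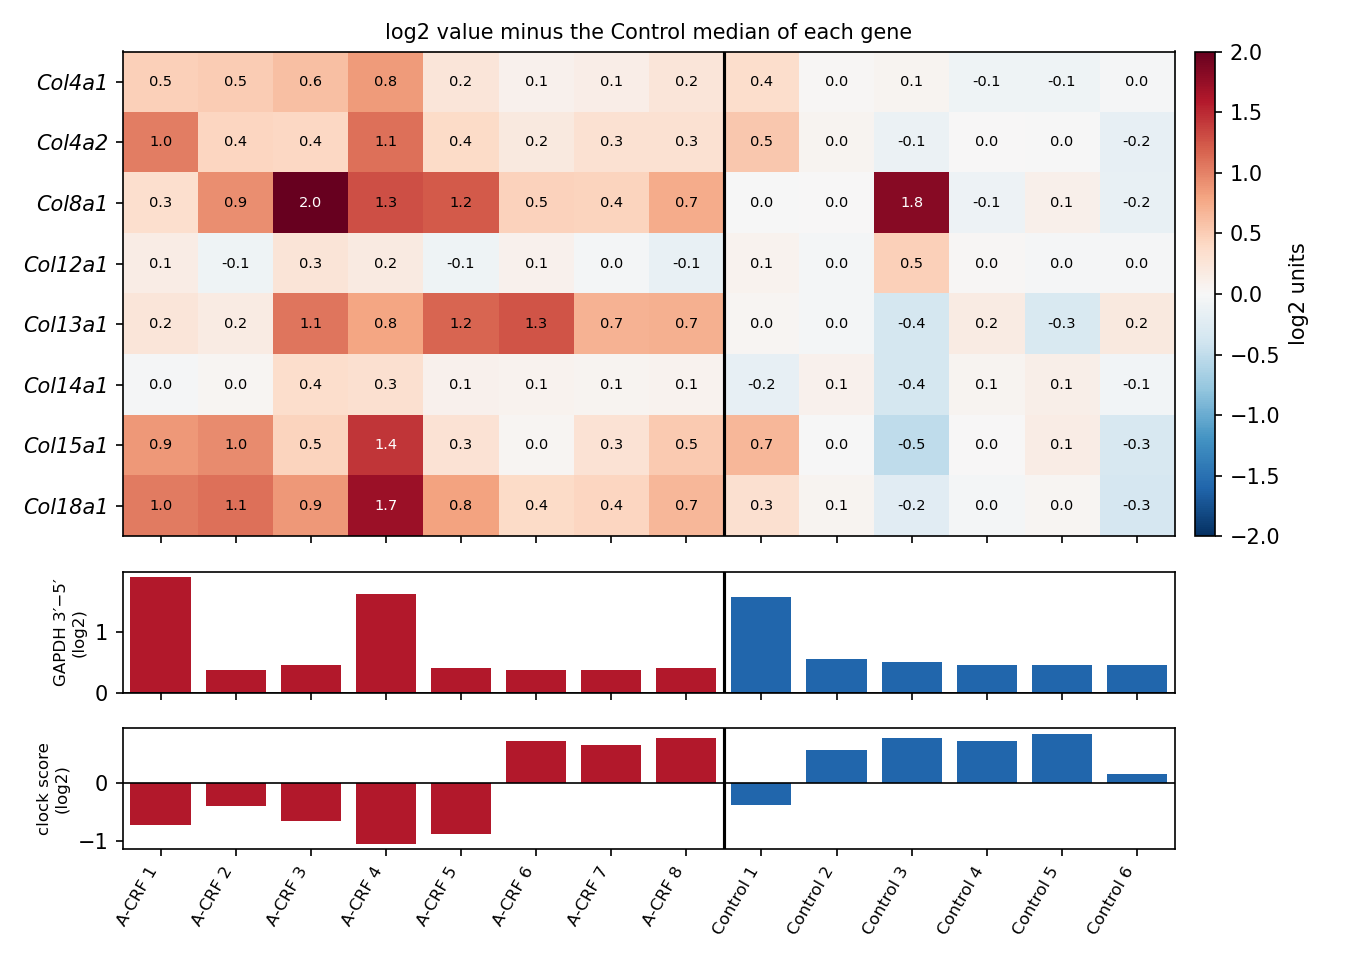
Log2 value of each collagen minus its Control median (colour, log2 units) in the 8 A-CRF arrays (left) and the 6 Control arrays (right), above bars of the GAPDH 3′ minus 5′ difference and of the clock gene score (log2 units) of each array. Control 3 stands out for Col8a1, A-CRF 4 for Col18a1 and Col15a1, and A-CRF 1, A-CRF 4 and Control 1 have the 3 high GAPDH bars.

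**Figure D3:**
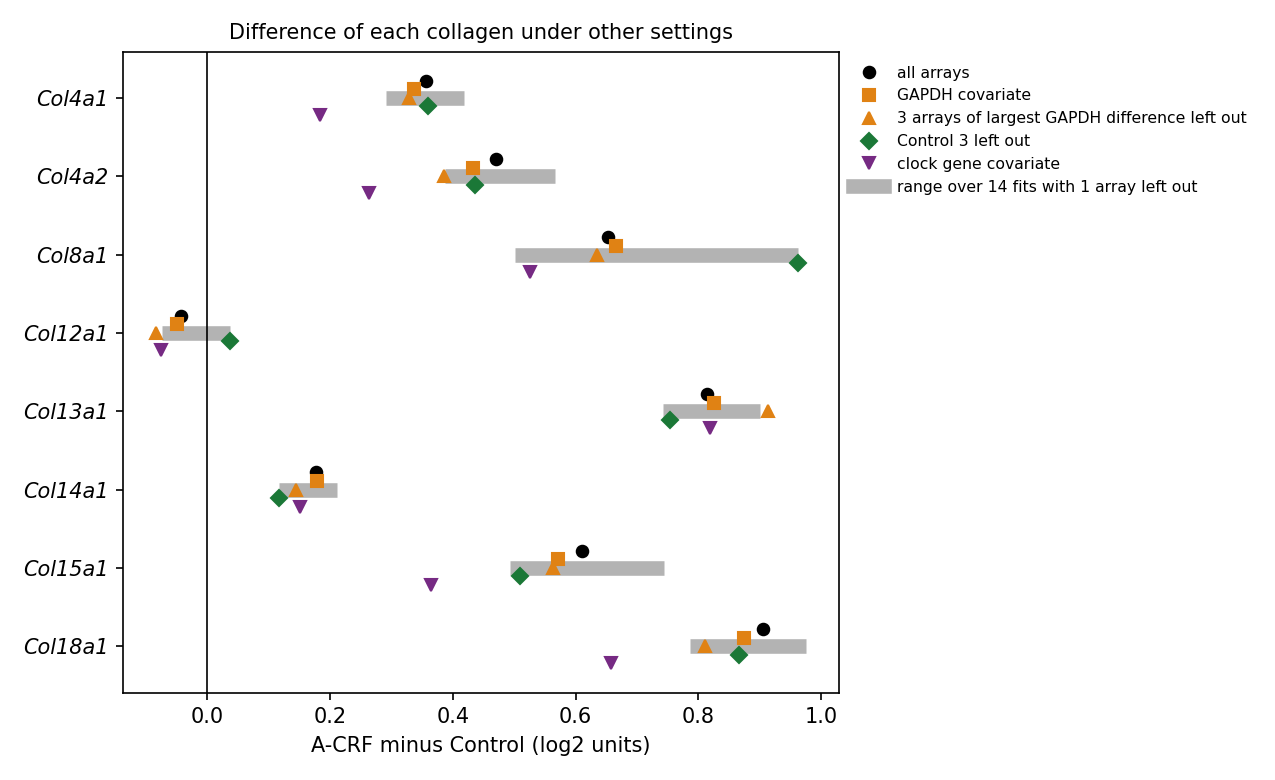
A-CRF minus Control difference (horizontal axis, log2 units) of each collagen with all arrays (black), with the GAPDH or clock covariate, without the 3 arrays of large GAPDH difference and without Control 3, and as a grey bar the range over 14 fits that each left out 1 array. The Col12a1 points lie between -0.08 and 0.04 and those of the other 7 genes are above 0, and the clock covariate gives the lowest points of Col4a1, Col4a2, Col15a1 and Col18a1.

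How the 8 genes varied among themselves was examined within each group, which leaves out the difference between groups but not splits within a group. A-CRF 6, 7 and 8 were the lowest A-CRF arrays for Col4a1, Col4a2 and Col18a1. Their clock scores were 0.64 to 0.77, against -1.04 to -0.40 in A-CRF 1 to 5. The mean of white adipocyte markers also varied within A-CRF, from 6.92 in A-CRF 4 to 8.52 in A-CRF 6. The permutation test treats all arrays of a group as exchangeable. The part of the clock split or of fat content in the correlations was not tested. Over the 8 A-CRF arrays, 24 of 28 gene pairs correlated positively, with a median Pearson r of 0.42 and a range of -0.59 to 0.95. After adjustment over the 28 pairs, 6 passed a two-sided exact permutation test. Col15a1 with Col18a1 gave r = 0.95 (adjusted p = 0.011) and rho = 0.88 (adjusted p = 0.051, exact permutation, n = 8). Col4a1 with Col18a1 gave r = 0.93 (adjusted p = 0.011) and rho = 0.93 (adjusted p = 0.031, exact permutation, n = 8). Col4a1 and Col4a2 each also correlated with Col15a1 (r = 0.87 and 0.83), Col4a2 correlated with Col18a1 (r = 0.83), and Col8a1 correlated with Col14a1 (r = 0.85), with adjusted exact permutation p of 0.015 to 0.035. The head-to-head genes Col4a1 and Col4a2 gave r = 0.76 (rho = 0.88), which did not pass after adjustment (p = 0.022, adjusted p = 0.089, exact permutation, n = 8).

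With the 2 arrays farthest from the median of the first gene left out, r was 0.82 for Col4a1 with Col18a1, 0.82 for Col15a1 with Col18a1, 0.91 for Col4a2 with Col18a1, 0.72 for Col4a2 with Col15a1, and 0.62 both for Col4a1 with Col15a1 and for Col8a1 with Col14a1. With 6 arrays the smallest exact permutation p is 0.0014, or 0.039 when 1 pair of 28 reaches it, so a call is hard to reach but possible. After adjustment 0 pairs passed there, against 4 unadjusted. Among the 6 pairs called over 8 arrays, unadjusted exact permutation p was 0.011 to 0.049 for those with Col18a1. It was 0.23 for Col4a1 with Col15a1, 0.11 for Col4a2 with Col15a1 and 0.082 for Col8a1 with Col14a1. By Spearman's rho, 2 pairs passed after adjustment over all 8 arrays, Col4a1 and Col4a2 each with Col18a1. After quantile normalization 6 passed by rho and 6 by r, and Col4a2 with Col18a1 also passed with the 2 farthest arrays left out (r = 0.98, adjusted p = 0.039, exact permutation, n = 6). Without A-CRF 1 and A-CRF 4, the 6 other arrays gave r = 0.86 for Col4a1 with Col4a2, 0.91 for Col4a2 with Col18a1 and 0.85 for Col15a1 with Col18a1, and 0 pairs passed after adjustment, against 6 unadjusted. Of the 7 pairs with Col13a1, 0 passed in A-CRF. Their r was -0.59 with Col15a1 (p = 0.12, adjusted p = 0.31, exact permutation, n = 8), -0.42 to -0.31 with Col4a1, Col4a2 and Col18a1, and 0.17 to 0.44 with Col8a1, Col12a1 and Col14a1. In the 6 Control arrays, 15 of 28 pairs were positive, the median r was 0.07, and 2 passed after adjustment, Col4a2 with Col18a1 (r = 0.91) and Col8a1 with Col13a1 (r = -0.71, adjusted p = 0.039, exact permutation, n = 6). By Spearman's rho 0 pairs passed in Control, and 6 arrays are too few to leave out 2 more. Col8a1 with Col13a1 had a rho of -1.0 there (p = 0.0028, adjusted p = 0.078, exact permutation, n = 6). That is the smallest p that rho can give with 6 arrays, so a lone pair could not pass by rho and the 0 is not read.

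**Figure D4:**
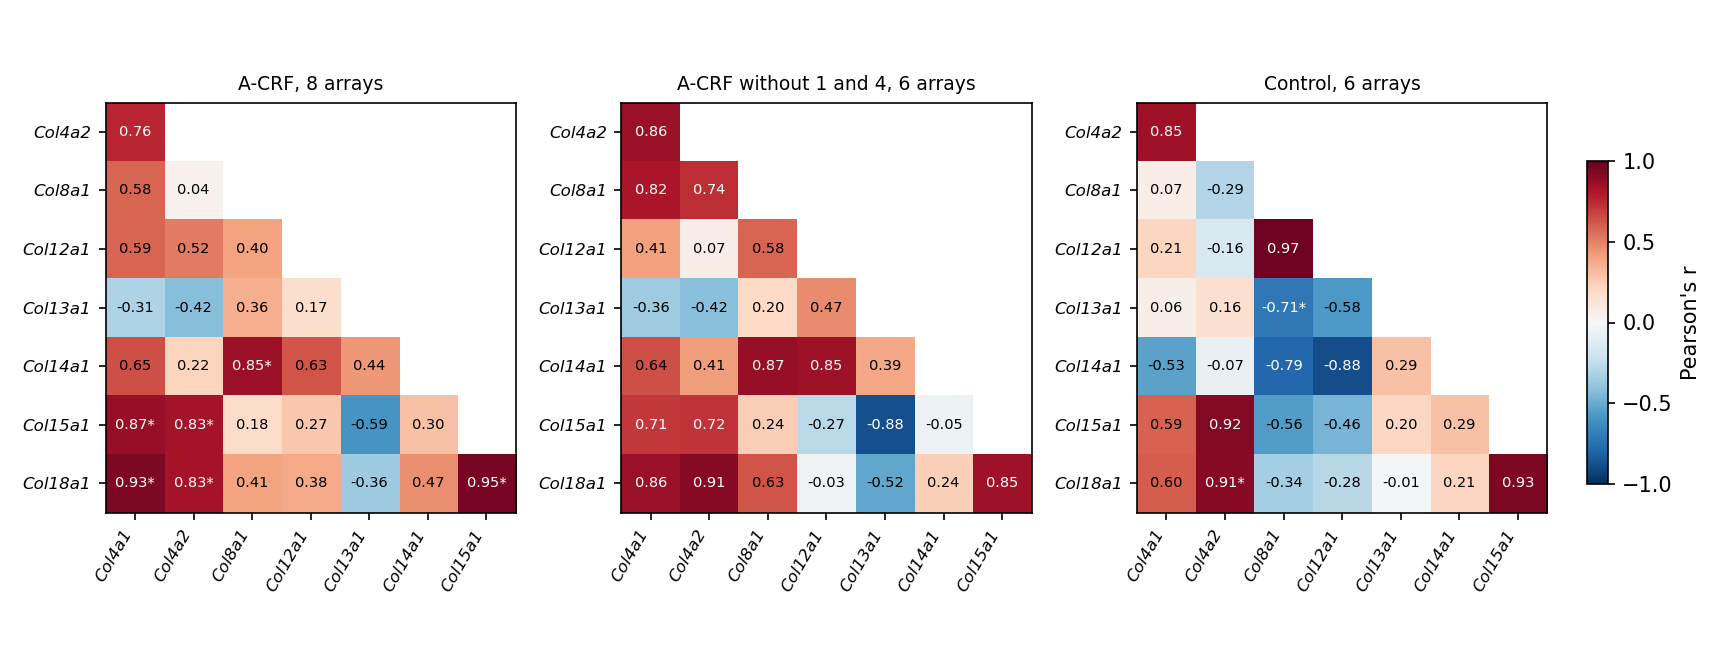
Pearson's r (colour and number) for every pair of the 8 collagens over the 8 A-CRF arrays (left), the 6 A-CRF arrays without A-CRF 1 and 4 (middle) and the 6 Control arrays (right); a star marks an adjusted exact permutation p under 0.05. The block of Col4a1, Col4a2, Col15a1 and Col18a1 has r of 0.76 to 0.95 in the left panel, and 0 pairs carry a star in the middle panel.

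Genes whose values followed Col4a1 or Col18a1 most closely were found by Pearson's r of deviations from the group means over 14 arrays, among 9316 genes with a mean above the median. For Col18a1 these were Pea15 (r = 0.96), Col6a1 (0.95), Arrdc1 (0.95), Ppp1r18 (0.94) and Tfg (0.94). For Col4a1 they were RT1-DMb (0.95), Scmh1 (0.95), Mvd (0.95), Relb (0.93) and Prr13 (0.92). The points share the 3 arrays of large GAPDH difference, and without those, over 11 arrays, RT1-DMb (0.98) and Pea15 (0.91) were again among the 5 closest genes of Col4a1 and Col18a1, while the other 4 of each set were different genes.

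The other components of the basement membrane were then set beside the collagens. This list and those that follow were chosen with earlier results of these data known. Their counts are of genes, and of 14217 named genes 275 were called higher and 150 lower. Of 22 measured genes of the basement membrane list, 4 were higher in A-CRF, 0 lower and 18 did not pass (limma, adjusted p under 0.05). The median difference was 0.12, and 1.26% of all probe sets were called higher. Pxdn, the peroxidase that cross-links type IV collagen, was 8.63 to 9.18 in A-CRF arrays and 7.99 to 8.35 in Control arrays, without overlap, and its difference was 0.61 ± 0.08 (SE, limma adjusted p = 0.0035). Sparc, a collagen-binding matricellular protein, was 12.17 to 12.56 in A-CRF arrays and 11.38 to 12.06 in Control arrays, also without overlap, a difference of 0.52 ± 0.10 (SE, limma adjusted p = 0.020). Both passed in all 14 fits that each left out 1 array, and with the clock covariate Pxdn passed (limma adjusted p = 0.018) and Sparc did not (limma adjusted p = 0.083). Lama2, the laminin chain best known from muscle basement membrane, rose by 0.35 (limma adjusted p = 0.032), and Agrn, the heparan sulfate proteoglycan agrin, rose by 0.26 (limma adjusted p = 0.036), although they passed in 8 and 3 of those 14 fits, with adjusted p up to 0.075 without Control 6 for both.

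Several main subunits did not pass the threshold. Lamb1, a laminin beta chain, was 8.67 to 9.25 in A-CRF arrays and 7.44 to 8.64 in Control arrays, and Hspg2, perlecan, was 8.36 to 9.40 in A-CRF arrays and 8.16 to 8.32 in Control arrays. Neither pair of groups overlapped, and the differences were 0.61 ± 0.16 (SE, limma adjusted p = 0.072) and 0.45 ± 0.13 (SE, limma adjusted p = 0.088). Nid1, nidogen, had a difference of 0.27 (limma adjusted p = 0.085). For Lamc1, Lamb2, Lama5, Lama4 and Nid2 the differences were 0.23, 0.16, 0.10, 0.03 and -0.07, with limma adjusted p of 0.356 to 0.939. In this list 6 of 22 genes had every A-CRF array above every Control array, as had 0.944% of all probe sets.

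Among 15 measured receptors for collagens and basement membranes, 0 were higher, 1 was lower and 14 did not pass (background for lower calls, 0.789%), with a median difference of 0.07. The lower one was Ddr2, a receptor tyrosine kinase for fibrillar collagen, at 7.94 ± 0.13 over the 8 A-CRF arrays and 8.21 ± 0.12 over the 6 Control arrays (± SD), a difference of -0.27 (limma adjusted p = 0.045). It passed in 3 of 14 fits that left out 1 array, with adjusted p up to 0.104 without Control 5. Of 21 genes for collagen synthesis and secretion, 1 was higher, 0 lower and 20 did not pass (background for higher calls, 1.26%), with a median of 0.12. The gene that rose was Plod2, a lysyl hydroxylase, at 9.15 to 9.61 in A-CRF arrays and 8.77 to 9.14 in Control arrays, without overlap (difference 0.43 ± 0.07, SE, limma adjusted p = 0.011).

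Proteases that cut basement membrane collagens, and their inhibitors, had 9 of 22 measured genes higher, 0 lower and 13 not past the threshold, with a median of 0.24. Of all probe sets 1.26% were called higher, and of 14217 named genes 275. In this list 16 of 22 genes had a Control mean more than 1 above the lowest value in the table, and dim genes are harder to call. The count was 5 to 10 when 1 array was left out and 3 with the clock covariate, where 0.341% of all probe sets were called higher. With that covariate Ctss passed (limma adjusted p = 0.027) and Ctsk did not (limma adjusted p = 0.063). Ctsk, cathepsin K, was 7.74 to 8.87 in A-CRF arrays and 6.88 to 7.48 in Control arrays and rose by 0.97 ± 0.17 (SE, limma adjusted p = 0.014). Ctss, cathepsin S, was 8.28 to 8.97 in A-CRF arrays and 7.73 to 8.04 in Control arrays and rose by 0.65 ± 0.09 (SE, limma adjusted p = 0.0047). Neither gene's groups overlapped. Plat, tissue plasminogen activator, rose by 0.65 (limma adjusted p = 0.014), and Ctsb, cathepsin B, by 0.30 (limma adjusted p = 0.038). Mmp2, a gelatinase that cleaves type IV collagen, rose by 0.59 (limma adjusted p = 0.021), while another of its probe sets had the opposite sign, and it did not pass without Control 5 or Control 6 (adjusted p = 0.051 for both). Mmp14, the membrane-bound activator of the Mmp2 protein, rose by 0.55 (limma adjusted p = 0.047) and passed in 4 of 14 fits that left out 1 array, with adjusted p up to 0.106 without Control 5, and Ctsb passed in 7, with up to 0.087 without Control 6.

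Other collagens were counted in the same way. Of 24 other non-fibrillar collagen genes measured, 0 were higher and 0 lower, with a median of 0.02, but 9 of the 24 had a Control mean more than 1 above the lowest value in the table, and dim genes can show little difference. Calls were not tested between lists. The largest differences there were those of Col6a1, a microfibril collagen, at 0.44 ± 0.18 (SE, limma adjusted p = 0.25), and Col4a5, a further type IV chain, at 0.37 ± 0.10 (SE, limma adjusted p = 0.078). Col4a5 was 10.95 to 11.30 in A-CRF arrays and 10.20 to 10.92 in Control arrays, without overlap. Of 11 fibrillar collagen genes, 1 was higher, 0 lower and 10 did not pass (background for higher calls, 1.26%), with a median of 0.15. Col5a2, a chain of type V that is built into the core of fibrils, was 9.34 to 10.04 in A-CRF arrays and 8.64 to 9.29 in Control arrays (difference 0.59 ± 0.12, SE, limma adjusted p = 0.026), and it did not pass without A-CRF 5, Control 3, Control 4 or Control 6, with adjusted p of 0.051 to 0.057. Of 8 proteoglycans and glycoproteins that associate with fibril-attached collagens, 1 was higher and 7 did not pass (background for higher calls, 1.26%), with a median of 0.19. Postn, periostin, was 10.44 to 11.68 in A-CRF arrays and 9.53 to 10.61 in Control arrays and rose by 0.91 (limma adjusted p = 0.047), and passed in 3 of 14 fits that left out 1 array, with adjusted p up to 0.102 without Control 4.

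**Figure D5:**
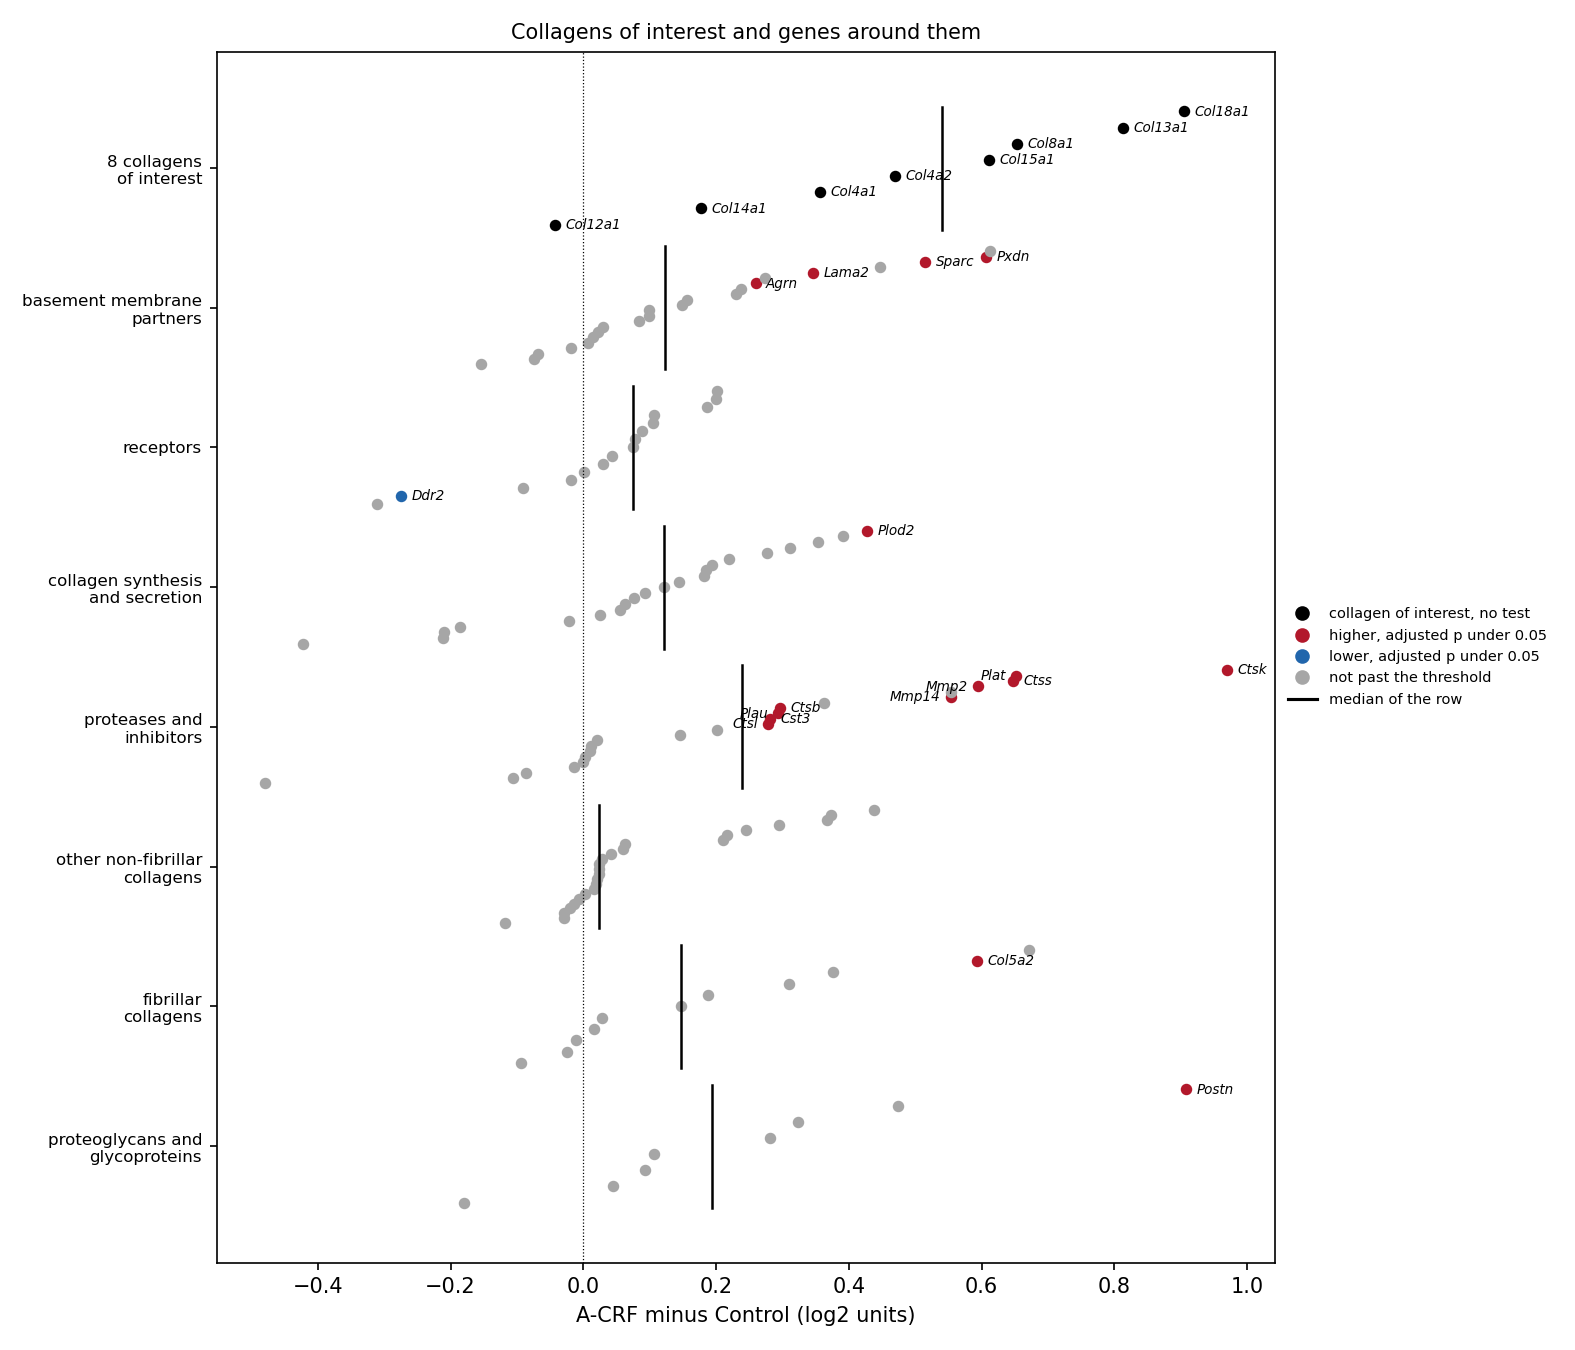
A-CRF minus Control difference (horizontal axis, log2 units) of the 8 collagens (black, no test) and of the genes of each list around them, 1 point per gene, red where higher and blue where lower at a limma adjusted p under 0.05, grey otherwise, with a bar at the median of each row. The median of the 8 collagens, chosen on this contrast, is 0.54, and those of the lists run from 0.02 for other non-fibrillar collagens to 0.24 for proteases and inhibitors.

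Markers of other cells moved beside these groups. Of 15 macrophage markers, 10 were higher, 0 lower and 5 did not pass, against 1.26% of all probe sets called higher. Their mean was 7.11 to 7.49 in A-CRF arrays and 6.75 to 6.91 in Control arrays, while 13 of 15 had a Control mean more than 1 above the lowest value in the table. Ctss is in that list and in the protease list. Of 8 smooth muscle markers, 0 were higher, 1 was lower (Myh11, with a difference of -0.29) and 7 did not pass (background for lower calls, 0.789%). Of the 8 differences 7 were negative, with a median of -0.25. Tagln, named after its values were seen, had all 8 A-CRF arrays below every Control array (difference -0.26, limma adjusted p = 0.059). Endothelial markers gave 0 calls of 9 and averaged 6.59 to 6.81 in A-CRF arrays and 6.52 to 6.74 in Control arrays. Adventitial fibroblast markers gave 0 calls of 8 and averaged 8.99 to 9.26 in A-CRF arrays and 8.97 to 9.08 in Control arrays. Chondrocyte markers gave 0 calls of 7, at 5.70 to 5.94 in A-CRF arrays and 5.61 to 5.84 in Control arrays. The lists of pericytes (6 measured), white and brown adipocytes, mesothelium (7 each) and T cells (8) gave 0 calls, that of Schwann cells gave 1 higher of 6, Pmp22, and that of skeletal muscle 1 lower of 7, Ckm. White adipocyte markers nevertheless spread widely within A-CRF. They averaged 6.92 (A-CRF 4) to 8.52 (A-CRF 6) in A-CRF arrays and 7.80 to 8.51 in Control arrays. The part of macrophages, fat content, clock phase or RNA quality in the differences of the collagens and the genes around them was not tested.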

How the data were processed

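The values deposited by the authors are log2 intensities, 1 per probe set and array, for 14 arrays. PLIER, which combines the probes of each set into 1 value, is named in the submitters' processing notes with no version. How background and array differences were corrected, and whether an offset was added, is not given in the sources used here. Values of 4.82 to 12.64 were read as base 2 from their range; an offset would compress differences of dim genes. Array medians were 5.62 to 5.64 and correlations between arrays 0.970 to 0.997.

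From 31099 probe sets, 57 control probe sets were left out. The platform annotation gave 1 symbol to 20826 probe sets, several to 436 and none to 9780. The probe set of highest mean stood for a gene. Groups came from the treatment label, and replicate numbers follow accession order. Differences were fitted with limma 3.58.1 (lmFit, eBayes, R 4.3.3) and adjusted by Benjamini-Hochberg over 31042 probe sets, and the fit was tested on simulated data. Correlations between collagens used two-sided exact permutation tests. The collagens and all gene lists were chosen with earlier results of these data known. Named were all 8 collagens, up to 6 called genes of largest change in each list (the top 2 where none passed), 10 main basement membrane subunits, and the 5 genes most like Col4a1 and Col18a1. Alternatives changed the offset, normalization, dim filter (40th percentile), eBayes options, array weights, representative probe set, covariates and arrays used.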

Additional observations from a re-analysis of the deposited data

Results flagged for a closer look

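In 13 of 64 groups tested, 1 array lay far from the others of its group by Dixon's criterion. Chance alone meets it in about 1 group in 20 for a single group of independent normal values. The 64 groups share the same 14 arrays, and every flag came from Control 1, Control 3 or A-CRF 4. They are therefore not independent, and the 13 is not set against that rate. Of these, 4 were groups of the 8 collagens. Control 1 was high for Col4a1 (8.22, next 7.93) and Col4a2 (7.21, next 6.73), and Control 3 was high for Col8a1 (9.13, next 7.41) and Col12a1 (6.60, next 6.20). Among the genes around them, Control 3 was low for Col4a5 (10.20), Lamb1 (7.44) and Sparc (11.38) and high for Nid2 (6.21). A-CRF 4 was high for Agrn (7.44), Hspg2 (9.40), Lamb2 (9.88), Lamc1 (9.77) and Mmp2 (10.54). A-CRF 4 and Control 1 are 2 of the 3 arrays with a large GAPDH 3′ minus 5′ difference, and Control 3 is not, at 0.50.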

How the results depend on the processing

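With all arrays, 636 probe sets were called. Array weights gave 1457, the GAPDH covariate 1041 and the clock covariate 148, and leaving out 1 array at a time gave 307 to 979. The median difference of the 8 collagens, 0.54, was 0.31 with the clock covariate and 0.44 to 0.60 when 1 array was left out. Called genes per list moved as follows. The clock covariate left 1 basement membrane gene (4 with all arrays), 3 proteases or inhibitors (9), and 0 genes (1 each) for receptors, synthesis, fibrillar collagens and proteoglycans. For proteoglycans an offset of 16 gave 0, and the dim filter, trend and robust eBayes, array weights, the GAPDH covariate and leaving out the 3 arrays of large GAPDH difference gave 2. For synthesis, quantile normalization, the dim filter, array weights and leaving out those 3 arrays gave 2. For receptors, median centring, trend and robust eBayes, the mean of probe sets, and leaving out the 3 arrays with or without Control 3 gave 0. For fibrillar collagens, array weights gave 2, the GAPDH covariate 3, and leaving out the 3 arrays with or without Control 3 gave 0. For other non-fibrillar collagens, array weights, and leaving out the 3 arrays with Control 3, gave 1 against 0. Leaving out 1 array gave 2 to 5 for basement membrane, 5 to 10 for proteases, 1 to 2 for synthesis, 0 to 2 for proteoglycans and 0 to 1 for receptors, fibrillar and other non-fibrillar collagens. Correlated pairs in A-CRF, 6 with all arrays, were 0 with the 2 farthest arrays left out and 0 without A-CRF 1 and 4. The causes were not tested, and leaving out arrays also leaves fewer samples. Leaving out Control 3 together with the 3 arrays, and leaving out A-CRF 1 and 4, were chosen after seeing the data. Of the 8 collagens and the 24 other genes run singly in each setting, the differences of Col12a1, Nid2 and Lama4, none of them called, changed sign. No paired analysis was possible because the labels give the groups no shared replicate numbers. Signal over background limits differences for 59.0% of probe sets, whose means lay less than 1 log2 unit above the table's lowest value.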

Other observations

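Other genes of the protease list also passed, outside the rule for named genes, and are named after their values were seen. Plau, urokinase plasminogen activator, rose by 0.29 (limma adjusted p = 0.0035), Cst3, the cathepsin inhibitor cystatin C, by 0.28 (limma adjusted p = 0.036), and Ctsl, cathepsin L, by 0.28 (limma adjusted p = 0.026). Of the matrix metalloproteinases of that list, Mmp3, Mmp7, Mmp9, Mmp13 and Mmp19 had means of 5.07 to 5.17 in A-CRF and 5.07 to 5.17 in Control, near the lowest value in the table.

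Over 123 genes of the lists around the collagens, Control 3 was the highest Control array for 25 and the lowest for 44, Control 1 for 38 and 18, and Control 6 for 7 and 36. The mean over the 8 collagens was 7.99 to 8.08 in A-CRF 6, 7 and 8, 8.20 to 8.65 in A-CRF 1 to 5, and 7.58 to 7.92 in the Control arrays.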
